A study of Mus musculus with 14 samples.

Results

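The elastic fiber and microfibril genes examined here are 10 genes chosen by name, namely *Eln*, *Fbn1*, *Fbn2*, *Fbln1*, *Fbln2*, *Fbln5*, *Mfap2*, *Mfap4*, *Mfap5* and *Emilin1*. Earlier results of these data were known when they were chosen. They are 10 of the 55487 genes counted, and all 10 were among the 16915 genes tested, which had more than 1 CPM (read counts scaled to the size of the library, with TMM factors) in at least 3 libraries. RNA was sequenced from tail intervertebral discs of 14 male mice, with the 5 discs of a mouse pooled into 1 library. The db/db mice (n=3) were homozygous for the *Lepr* db mutation of the leptin receptor, and the db/+ mice (n=3) were their heterozygous littermates, both at 3 months of age. The STZ-HFD mice (n=4) were C57BL/6J males that ate a high-fat diet for 4 to 6 weeks, received streptozotocin (STZ, a toxin of insulin-producing beta cells) once at 100 mg/kg and stayed on the diet for 12 more weeks, and the Con+Veh mice (n=4) were C57BL/6J males on chow that received only the buffer. Each diabetic group was set against its own control. The paper describes the C57BL/6 mice as 12 weeks old, and if that is the age at entry, the weeks on diet add to it. The pair of cohorts differed in genotype background, age and treatment, so no test was run on levels between them. In the difference between the models, which compares responses, age and model cannot be told apart.

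Elastic fibers have a core of cross-linked elastin inside a mantle of fibrillin microfibrils. Fibulins and microfibril-associated proteins help to place elastin on the microfibrils, lysyl oxidases cross-link it, and fibrillins also hold latent growth factors of the TGF-beta family. In the intervertebral disc the fibers run between and across the collagen layers of the annulus fibrosus and let the tissue recover its shape after loading.

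Total counts ranged from 16076908 to 58943169 per library and from 8945906 to 35031712 outside ribosomal RNA, so that 3 counts corresponded to 0.0509 to 0.187 CPM. *Lepr* had 309 to 534 counts in db/db and 374 to 472 in db/+, and its total count did not separate them. The annulus and tendon fibroblast markers were above 0 in every library, as were 6 skeletal muscle markers. The 7 annulus and tendon fibroblast markers summed to 18800 to 23000 CPM in db/+ and 1890 to 3730 in Con+Veh, and the skeletal muscle markers to 3760 to 7210 and 6210 to 8220, in separate cohorts of mice. *Shh* and *Noto*, markers of the notochordal nucleus pulposus, were at 0 counts in 8 and 11 of the 14 libraries. The other markers of that list, *T*, *Krt8*, *Krt18* and *Krt19*, were above 0 in every library. Group means of *T* were 157 CPM in db/+, 34.2 in db/db, 167 in Con+Veh and 116 in STZ-HFD. Con+Veh 1, Con+Veh 2 and STZ-HFD 1 had quality weights of 0.275, 0.462 and 0.379 where the highest library had 3.05, and Con+Veh 2 and STZ-HFD 4 carried an ending in their column names that no other library had. In pooled discs, fewer cells of a type and less RNA per cell cannot be told apart.

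The fibulin-1 gene *Fbln1* carried the only called change among the 10 genes, and its upstream sequence is shown with that of the fibulin-5 gene *Fbln5*, the member with the smallest adjusted p in the other model. The windows are the 250 bases before a RefSeq start site on GRCm38.p6, written 5′ to 3′ on the strand of the gene, with matches to any of 6 short motifs in capitals. *Fbln1* lies on the plus strand and its window is chr15:85205699-85205948. *Fbln5* lies on the minus strand and its window is chr12:101819120-101819369. Each gene has another RefSeq start site, whose window reaches into annotated exons and is not shown.
Fbln1: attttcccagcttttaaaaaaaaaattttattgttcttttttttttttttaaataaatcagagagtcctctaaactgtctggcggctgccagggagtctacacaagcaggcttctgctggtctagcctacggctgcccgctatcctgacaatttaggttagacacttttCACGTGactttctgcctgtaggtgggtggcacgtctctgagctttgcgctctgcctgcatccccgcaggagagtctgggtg
Fbln5: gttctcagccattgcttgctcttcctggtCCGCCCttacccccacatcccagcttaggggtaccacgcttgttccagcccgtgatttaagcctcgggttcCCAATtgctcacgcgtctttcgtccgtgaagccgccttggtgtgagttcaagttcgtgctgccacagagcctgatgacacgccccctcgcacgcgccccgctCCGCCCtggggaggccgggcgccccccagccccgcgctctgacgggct
The motifs searched on both strands were TATAAA for the TATA box, CCAAT for the box bound by NF-Y, GGGCGG for the box bound by Sp1, TGACTCA for AP-1 sites, CACGTG for an E-box and GGAATG for TEAD sites, and the matches shown do not overlap each other. The *Fbln1* window held 1 CACGTG, a motif present in 6.02% of 32851 windows of the same length, and its GC content was 46.4%. The *Fbln5* window held 2 GGGCGG matches and 1 CCAAT, found in 32.7% and 33.8% of all windows, and its GC content was 65.2%. The windows of both genes lacked TATAAA, which 12.4% of all windows held. Promoter windows were taken for 6 of the 10 genes, and *Eln*, *Fbn2*, *Mfap4* and *Mfap5* were not among them. A match is a string of letters and was not tested as a binding site.

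In STZ-HFD discs *Fbln1* fell 3.98-fold, and *Fbn1* was 1.97-fold lower, with an adjusted p that passed and a fold change just under the minimum. In db/db discs no member was called, and the log2 fold changes farthest from 0 were those of *Mfap4* (1.76), *Mfap5* (1.12), *Fbln5* (0.90) and, in the other direction, *Emilin1* (-0.90). Calls required an adjusted p under 0.05 in limma's voomWithQualityWeights test, with Benjamini-Hochberg adjustment over all genes tested, and a log2 fold change beyond 1 in size.

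**Figure D1:**
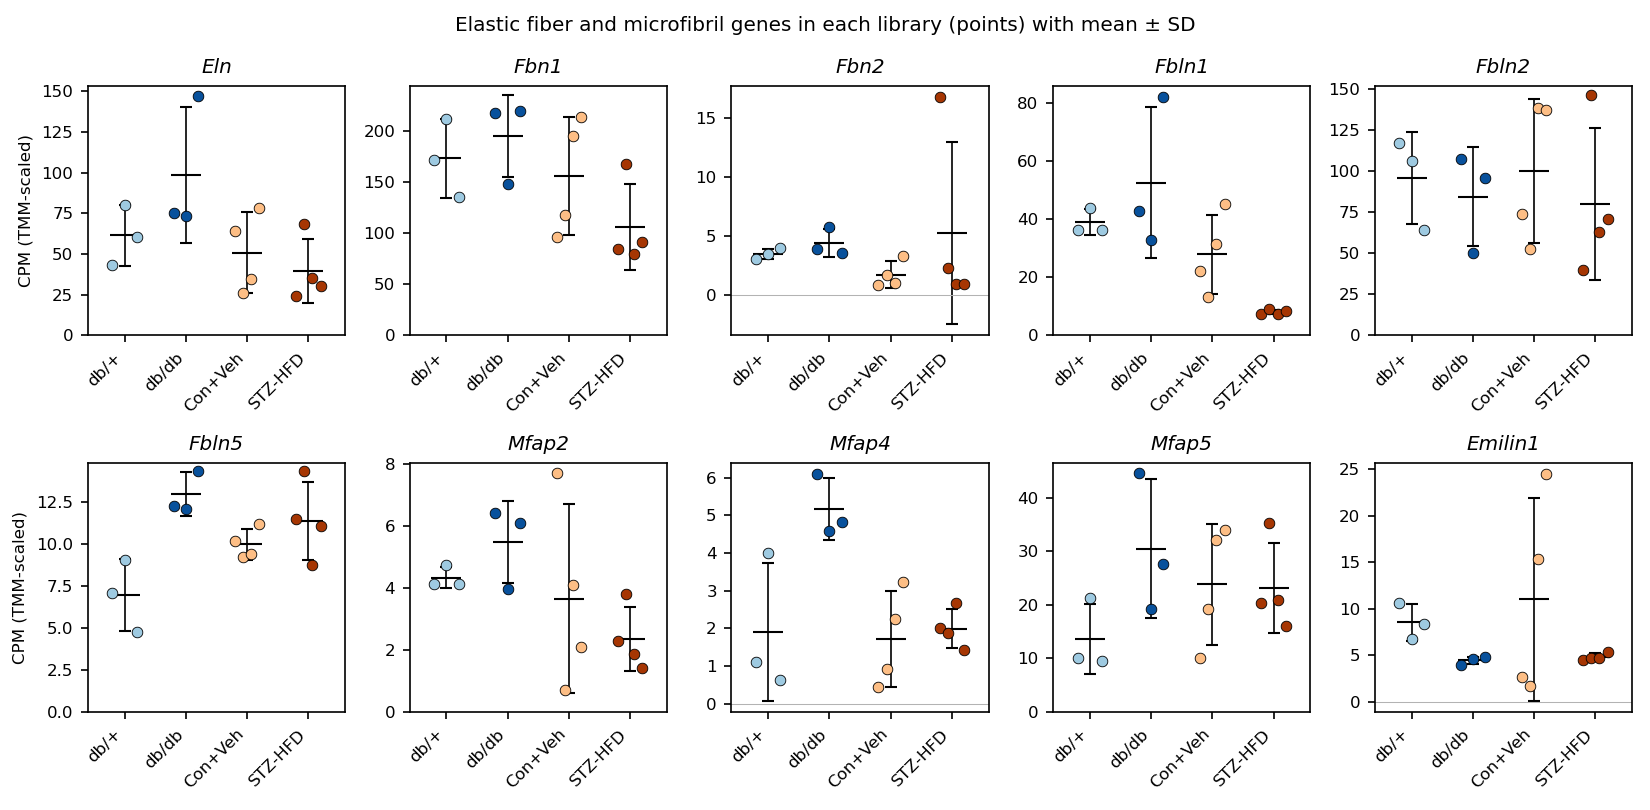
CPM, scaled by TMM factors, of each elastic fiber and microfibril gene in the 14 libraries (points), with the mean and SD of each group as a bar and whiskers, on linear axes that start at or below 0. The 4 STZ-HFD libraries sit between 7.38 and 8.99 CPM for *Fbln1*, all below the lowest Con+Veh library at 13.3 CPM, and the 3 db/db libraries lie above all db/+ libraries for *Fbln5* and *Mfap4*.

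Levels were first set in order per length, as CPM per kb of exon. The mantle genes *Fbn1* and *Fbln2* were the most abundant in every group. *Fbn1* stood at 14.3 ± 3.18 CPM per kb (SD, n=3) in db/+ and 12.8 ± 4.74 (SD, n=4) in Con+Veh, and *Fbln2* at 15.0 ± 4.39 and 15.7 ± 6.85, so that the order of this pair was within their spread. In Con+Veh the next were *Mfap5* at 6.64 ± 3.14 CPM per kb, *Fbln1* at 6.41 ± 3.12 and *Eln* at 6.29 ± 3.05 (SD, n=4). *Mfap2* at 3.02 ± 2.51, *Emilin1* at 2.24 ± 2.20, *Fbln5* at 1.45 ± 0.132 and *Mfap4* at 0.891 ± 0.663 CPM per kb followed. *Fbn2*, the fibrillin best known from embryonic microfibrils, was lowest at 0.128 ± 0.0852 CPM per kb. Each neighbour in the Con+Veh order overlapped with the next. In db/+ the order after the leading pair was *Fbln1* at 8.90 ± 1.03, *Eln* at 7.59 ± 2.30, *Mfap5* at 3.79 ± 1.82, *Mfap2* at 3.58 ± 0.288, *Emilin1* at 1.73 ± 0.403, *Fbln5* at 1.01 ± 0.311, *Mfap4* at 0.991 ± 0.950 and *Fbn2* at 0.263 ± 0.0336 CPM per kb (SD, n=3). In db/+ the libraries of neighbours in this order overlapped except between *Fbn1* and *Fbln1*, *Mfap2* and *Emilin1*, *Emilin1* and *Fbln5*, and *Mfap4* and *Fbn2*. In db/db *Eln* at 12.2 ± 5.15 and *Fbln1* at 12.0 ± 5.95 CPM per kb (SD, n=3) came up to the leading pair, and in STZ-HFD *Fbln1* stood at 1.84 ± 0.182 CPM per kb (SD, n=4), next to *Mfap2* at 1.94 ± 0.850 and *Fbln5* at 1.65 ± 0.334.

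As a share of the summed CPM per kb of the 10 genes, *Fbn1* made up 18.0% to 29.9% and *Fbln2* 15.5% to 35.6% of a library. The *Fbln1* share was 14.6% to 18.0% in db/+ and 12.6% to 21.2% in db/db. It was 9.36% to 13.1% in Con+Veh and 3.19% to 5.78% in STZ-HFD, and these ranges did not overlap. In the db cohort the shares of 5 genes did not overlap. By CPM, 14.1% of all genes tested were higher and 11.7% lower in db/db without overlap. A rate for shares was not computed, so nothing is read from the count of 5. Lower in db/db were the shares of *Fbn1* (24.2% to 25.3% in db/+ and 20.4% to 24.1% in db/db), *Fbln2* (21.8% to 32.5% and 15.5% to 21.7%) and *Emilin1* (1.96% to 3.82% and 1.04% to 1.80%). Higher were those of *Fbln5* (1.5% to 1.90% and 2.30% to 3.45%) and *Mfap5* (5.0% to 8.54% and 8.70% to 16.0%). The shares of a library add up to the whole, so they do not move independently.

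**Figure D2:**
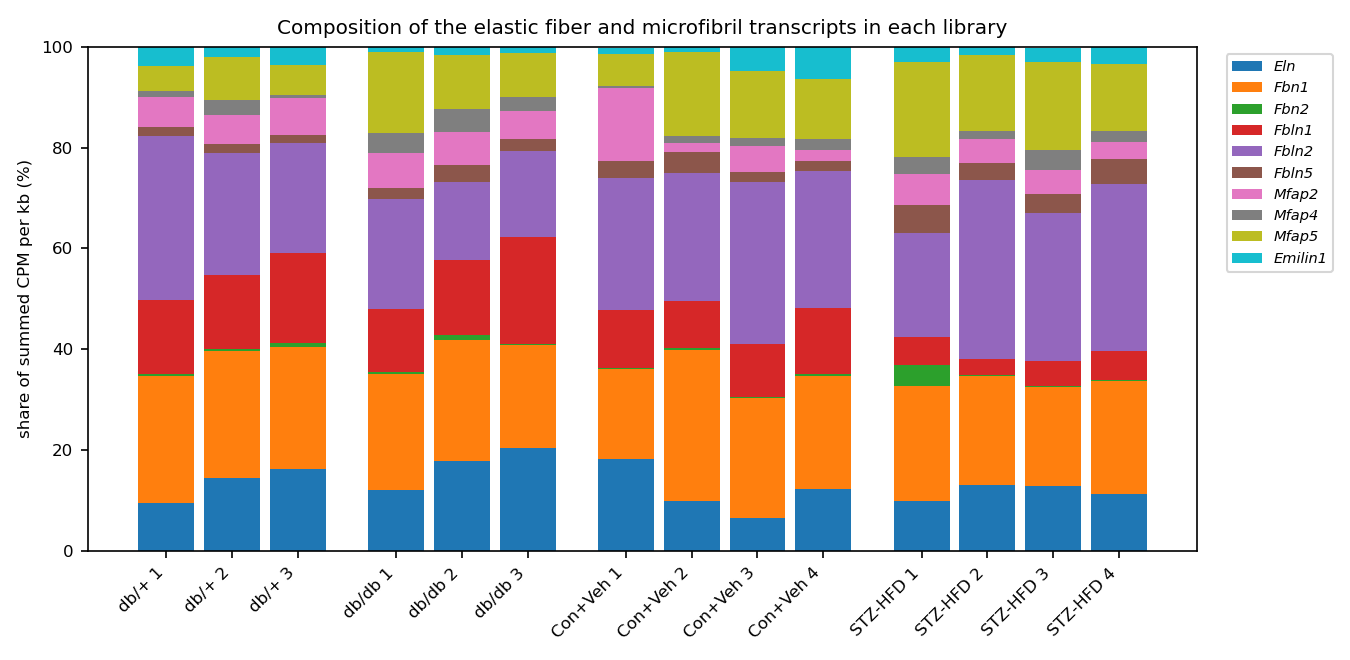
Share of the summed CPM per kb of the 10 genes taken by each gene, in percent, with 1 bar per library. The *Fbln1* segment is 9.36% to 13.1% in the Con+Veh libraries and 3.19% to 5.78% in the STZ-HFD libraries, and the *Fbn1* segment is 18.0% to 29.9% in all libraries.

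Of the fibulins, which bind both elastin and basement membrane proteins, *Fbln1* (ENSMUSG00000006369, plus strand of chr15:85205949-85286535 on GRCm38, where the positions that follow also lie) was the only one of the 3 members to be called. Its CPM was 22.1, 13.3, 31.4 and 45.1 in Con+Veh 1 to 4 and 7.40, 8.99, 7.38 and 8.43 in STZ-HFD 1 to 4. All STZ-HFD libraries were lower than all Con+Veh libraries, and the STZ-HFD values lay close together while the Con+Veh values spread widely. The log2 fold change was -1.99 (SE 0.32, 95% confidence interval -2.67 to -1.31, adjusted p=0.00516). *Fbln1* was 1 of 221 genes called lower in STZ-HFD, which is 1.31% of the genes tested, and 0 of the 10 genes were among the 1.3% called higher.

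In the db cohort *Fbln1* measured 36.3, 44.0 and 36.2 CPM in db/+ 1 to 3 and 42.8, 33.0 and 82.1 CPM in db/db 1 to 3. The groups overlapped, and db/db 3 was the highest library of the cohort. limma put the log2 fold change at 0.32 (SE 0.32, 95% confidence interval -0.36 to 1.00, adjusted p=0.603). The responses of both models were also compared directly, as the log2 fold change in db/db minus that in STZ-HFD. This difference was 2.31 for *Fbln1* (SE 0.46, 95% confidence interval 1.35 to 3.27, adjusted p=0.0236), and it was the only call among the 10 genes where 0.816% of all genes were called in that direction and 0.952% in the other.

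The call on *Fbln1*, like the calls over all genes, depended on single libraries although its direction did not. Con+Veh 3 and Con+Veh 4 had the highest quality weights, at 3.05 and 1.81, and the fewest counts of their group. They were also the most alike of all pairs within a group, with a chi-square per degree of freedom of 57.7. For the other Con+Veh pairs it was 326 to 661. No alternative left out both, so their joint part in the call was not tested. In STZ-HFD against Con+Veh the log2 fold change lay between -2.20 and -1.62 under all 27 alternatives, and it was called in 22 of them. It was not called without Con+Veh 3 (adjusted p=0.0825), without Con+Veh 4 (adjusted p=0.0733), without STZ-HFD 3 (adjusted p=0.0883), without quality weights (adjusted p=0.0842) or without a filter on low counts (adjusted p=0.0870). Over all genes 17, 18 and 18 were called without these libraries in turn, 19 without quality weights and 130 without a filter. The main fit called 220 higher and 221 lower. The difference between the models was called in 18 of 26 alternatives, and it was lost without db/+ 2 (adjusted p=0.0581), db/db 3 (adjusted p=0.0542), Con+Veh 3 (adjusted p=0.118), Con+Veh 4 (adjusted p=0.0608) or STZ-HFD 3 (adjusted p=0.0745), by edgeR's quasi-likelihood test, without quality weights and without a filter. Over all genes the difference was called for 22, 72, 4, 98 and 27 genes without these libraries in turn. It was called for 5 by edgeR, for 3 without quality weights, and for 96 and 144 in the 2 directions without a filter. The main fit called 138 and 161.

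Markers of other cells moved with this comparison. The summed CPM of markers of chondrocyte-like cells of the inner annulus and endplate, of which 6 of 7 listed were tested, was 1890, 1340, 2430 and 3180 in Con+Veh and 678, 774, 590 and 1260 in STZ-HFD, without overlap, and 4 of the 6 were called lower. The 7 annulus and tendon fibroblast markers summed to 1890 to 3730 in Con+Veh and 1040 to 3090 in STZ-HFD, with 2 called lower. The 6 skeletal muscle markers summed to 6210 to 8220 and 6010 to 16700, with 2 called higher. The 5 macrophage markers summed to 67.8 to 173 and 51.4 to 112, with 2 called lower, and the 5 osteoblast and osteocyte markers to 82.9 to 300 and 70.2 to 206, with 1 called lower. The 6 adventitial fibroblast markers summed to 182 to 314 and 169 to 282, with 0 called. The part of these cells in the fall of *Fbln1* was not tested.

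*Fbln2* and *Fbln5* were called in neither model. *Fbln2* (ENSMUSG00000064080, chr6:91212455-91272540, plus strand), which links fibrillin to other matrix proteins, had 73.5, 52.7, 138 and 137 CPM in Con+Veh and 40.0, 146, 62.7 and 70.7 CPM in STZ-HFD. STZ-HFD 2 exceeded every Con+Veh library, and the groups overlapped. The log2 fold change was -0.77 (SE 0.31, adjusted p=0.188). In the db cohort *Fbln2* had 117, 106 and 64.0 CPM in db/+ and 107, 50.1 and 95.8 CPM in db/db, with overlap and a log2 fold change of -0.25 (SE 0.38, adjusted p=0.744).

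*Fbln5* (ENSMUSG00000021186, chr12:101746565-101819055, minus strand), needed to assemble elastic fibers in skin, lung and vessels, had 7.12, 9.05 and 4.76 CPM in db/+ and 12.3, 12.1 and 14.4 CPM in db/db. All db/db libraries were higher than all db/+ libraries. Its fitted log2 fold change was 0.90 (SE 0.24, 95% confidence interval 0.40 to 1.40), and the adjusted p of 0.0564 missed the threshold, as did the fold change. *Fbln5* had 10.2, 9.22, 9.44 and 11.2 CPM in Con+Veh and 11.5, 14.4, 8.77 and 11.1 CPM in STZ-HFD, with overlap and a log2 fold change of 0.09 (SE 0.23, 95% confidence interval -0.39 to 0.58, adjusted p=0.874).

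Ratios within a library do not depend on its depth. These ratios were chosen after the levels had been seen and are given without a test. The ratio of *Fbln1* to *Fbln2*, each per kb, was 0.333 to 0.481 in Con+Veh and 0.0897 to 0.270 in STZ-HFD. The ratio of *Fbln1* to *Fbn1* was 0.313 to 0.640 and 0.148 to 0.259, and that of *Fbln1* to *Fbln5* 2.28 to 6.35 and 0.988 to 1.33. None of these ranges overlapped between the groups. Among all 45 pairs of the 10 genes, the ratio separated STZ-HFD from Con+Veh in 7, and *Fbln1* was in 6 of them, where 4.69% of the ratios between any 2 tested genes did so. The same 45 ratios separated db/db from db/+ in 16, of which *Emilin1* was in 8, where 24.4% of all such ratios did. Ratios that share a gene are not independent.

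Of the 45 ratios, 1 separated both diabetic groups from their controls, in the same direction, as did 0.451% of the ratios of all tested genes (1.06% in any direction). With 16 and 7 of 45 separated in the single models, nothing is read from this count. The ratio of *Mfap5*, a microfibril-associated glycoprotein, to *Fbn1*, the main fibrillin, was 0.198, 0.337 and 0.240 in db/+ and 0.696, 0.439 and 0.427 in db/db. It was 0.353, 0.552, 0.557 and 0.535 in Con+Veh and 0.821, 0.708, 0.891 and 0.594 in STZ-HFD. In each cohort all diabetic libraries had more *Mfap5* per *Fbn1* than all control libraries.

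**Figure D3:**
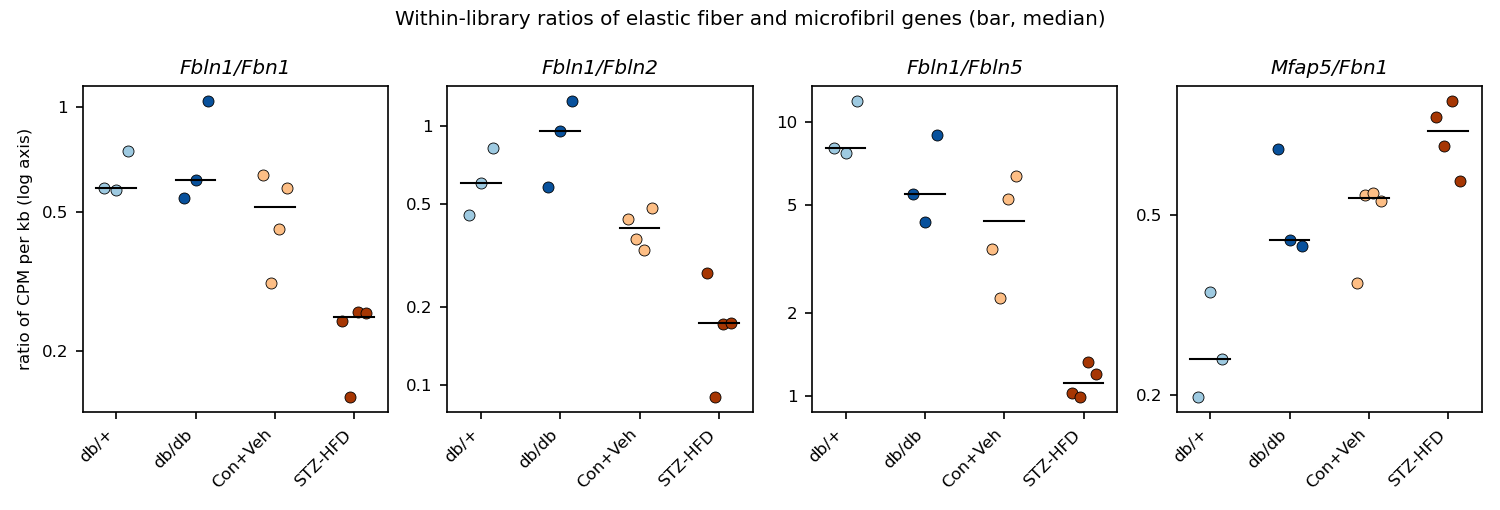
Ratios of CPM per kb within each library (points, log axis) for 4 pairs of genes, with the group median as a bar. The 3 ratios with *Fbln1* as numerator are lower in all STZ-HFD libraries than in all Con+Veh libraries, and the ratio of *Mfap5* to *Fbn1* is higher in both diabetic groups than in their controls.

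The fibrillins form the backbone of the microfibril. *Fbn1* (ENSMUSG00000027204, chr2:125300594-125507993, minus strand), the gene mutated in Marfan syndrome, had 96.1, 118, 195 and 214 CPM in Con+Veh and 84.1, 168, 79.2 and 91.0 CPM in STZ-HFD. STZ-HFD 1, 3 and 4 were lower than every Con+Veh library, but STZ-HFD 2 was not. The log2 fold change was -0.98 (SE 0.24, 95% confidence interval -1.48 to -0.48, adjusted p=0.0320). With no minimum on the fold change it passed along with 1.8% of genes in that direction, and leaving out STZ-HFD 2 gave -1.13 (adjusted p=0.0137). Over all 27 alternatives it lay between -1.13 and -0.53 with adjusted p from 0.0137 to 0.524, the highest without quality weights. It no longer passed by edgeR, by DESeq2, with filterByExpr, without a filter, with each model alone, with the replicate block or without any of Con+Veh 3, Con+Veh 4, STZ-HFD 3 and STZ-HFD 4. In the db cohort *Fbn1* had 172, 212 and 135 CPM in db/+ and 217, 148 and 219 CPM in db/db, with overlap and a log2 fold change of 0.14 (SE 0.30, 95% confidence interval -0.50 to 0.77, adjusted p=0.830). The difference between the models was 1.12 (SE 0.38, adjusted p=0.138). An annotated gene on the opposite strand, *Gm9913*, shares 20.1% of the exon bases of *Fbn1*, and the strand setting of the counting is not given in the sources used here.

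*Fbn2* (ENSMUSG00000024598, chromosome 18 from 58008623 to 58210487, minus strand) was rare. It had 0.838, 1.67, 0.982 and 3.30 CPM in Con+Veh and 16.8, 2.29, 0.927 and 0.917 CPM in STZ-HFD. STZ-HFD 1 held 412 counts of it in the shallowest library, while the other STZ-HFD libraries, with 30 to 67, overlapped with Con+Veh. The transcript estimates do not show this excess, with 9.0 estimated counts in STZ-HFD 1 and 13.0, 12.0 and 8.0 in STZ-HFD 2 to 4. The fit gave a log2 fold change of -0.15 (SE 0.60, adjusted p=0.929), in a fit that gave STZ-HFD 1 little weight. edgeR's quasi-likelihood test gave 1.64 (adjusted p=0.384) and DESeq2 1.67, so the direction was not settled. In db/+ it had 3.04, 3.44 and 3.93 CPM and in db/db 3.87, 5.74 and 3.52 CPM, with overlap and a log2 fold change of 0.32 (SE 0.36, adjusted p=0.658).

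*Eln* (ENSMUSG00000029675, chr5:134702593-134747323, minus strand), which encodes the elastin precursor, varied widely within groups. It had 64.5, 25.9, 34.8 and 78.5 CPM in Con+Veh and 24.2, 68.4, 35.0 and 30.3 CPM in STZ-HFD. The groups overlapped, with a log2 fold change of -0.34 (SE 0.34, 95% confidence interval -1.05 to 0.37, adjusted p=0.655). In db/+ it had 43.2, 80.4 and 60.8 CPM and in db/db 75.5, 73.3 and 147 CPM. Again the groups overlapped, and db/db 3 was the highest library, as it was for *Fbln1*. The log2 fold change was 0.63 (SE 0.41, 95% confidence interval -0.22 to 1.49, adjusted p=0.384).

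No gene of a microfibril-associated protein passed the test in db/db. *Mfap4* (ENSMUSG00000042436, chr11:61485431-61488900, plus strand), a fibrinogen-related protein that binds elastin and fibrillin, had 1.10, 4.00 and 0.618 CPM in db/+ and 6.10, 4.58 and 4.81 CPM in db/db. All db/db libraries were above all db/+ libraries, of which db/+ 2 came close. This gave a log2 fold change of 1.76 (SE 0.49, 95% confidence interval 0.71 to 2.80, adjusted p=0.0672). In Con+Veh it had 0.432, 0.930, 2.24 and 3.24 CPM and in STZ-HFD 2.00, 1.88, 2.66 and 1.42 CPM, with overlap and a log2 fold change of 0.00 (SE 0.60, 95% confidence interval -1.27 to 1.28, adjusted p=0.999).

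*Mfap5* (ENSMUSG00000030116, chr6:122505845-122529290, plus strand) had 10.1, 21.2 and 9.57 CPM in db/+ and 44.7, 19.3 and 27.7 CPM in db/db. The groups overlapped through db/+ 2 and db/db 2. The log2 fold change was 1.12 (SE 0.37, 95% confidence interval 0.33 to 1.90, adjusted p=0.111). In Con+Veh it had 10, 19.2, 32.1 and 33.9 CPM and in STZ-HFD 20.4, 35.3, 20.9 and 16.0 CPM, with overlap and a log2 fold change of -0.51 (SE 0.33, adjusted p=0.454). The difference between the models was 1.63 (SE 0.50, adjusted p=0.10).

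*Mfap2* (ENSMUSG00000060572, chr4:141010418-141015984, plus strand), the relative of *Mfap5* that binds fibrillin and TGF-beta, had 4.14, 4.74 and 4.13 CPM in db/+ and 6.42, 3.97 and 6.09 CPM in db/db. The groups overlapped, with a log2 fold change of 0.29 (SE 0.36, adjusted p=0.679). In Con+Veh it had 7.70, 0.703, 4.11 and 2.11 CPM and in STZ-HFD 2.29, 3.80, 1.88 and 1.42 CPM, with overlap and a log2 fold change of -0.55 (SE 0.51, adjusted p=0.623). The ratio of *Mfap2* to *Mfap5*, per kb, was 0.664 to 1.28 in db/+ and 0.426 to 0.653 in db/db, so that their ranges did not overlap.

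*Emilin1* (ENSMUSG00000029163, chr5:30913402-30921277, plus strand) encodes a glycoprotein at the interface of elastin and microfibrils. It had 10.6, 6.68 and 8.30 CPM in db/+ and 3.98, 4.53 and 4.77 CPM in db/db. All db/db libraries were lower than all db/+ libraries, but the log2 fold change of -0.90 (SE 0.56, 95% confidence interval -2.07 to 0.27) had an adjusted p of 0.365. In Con+Veh it had 2.68, 1.72, 15.3 and 24.5 CPM and in STZ-HFD 4.46, 4.65, 4.73 and 5.35 CPM. Con+Veh 1 and 2 were below and Con+Veh 3 and 4 above all STZ-HFD libraries, and the log2 fold change of -1.34 (SE 0.55) had an adjusted p of 0.205. It was called without Con+Veh 2, at -1.77 (adjusted p=0.0158), and gene totals from transcript counts gave 0.04 (adjusted p=0.987). The endothelial marker *Kdr* was split in the same libraries, at 12.0 and 25.2 CPM in Con+Veh 1 and 2 and 646 and 578 in Con+Veh 3 and 4. The other 4 endothelial markers summed to 164, 191, 205 and 263 CPM in Con+Veh 1 to 4. The part of these cells in the level of *Emilin1* was not tested.

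As a list, 0 of the 10 genes were called in db/db against db/+, where 1.23% of genes were called higher and 0.432% lower, and 3 of 10 had an unadjusted p under 0.05, against 21.1% of all genes. DESeq2 called 0 members there too, beside 160 genes higher and 52 lower of all tested, while edgeR's quasi-likelihood test called 0 of all genes tested (1891 at an unadjusted p under 0.05) and so bears on no member. In STZ-HFD against Con+Veh 4 of 10 had an unadjusted p under 0.05, against 17.9% of all genes, and for the difference between the models 5 of 10, against 17.3%. Of the 10, 8 had a positive log2 fold change in db/db and 2 in STZ-HFD (*Fbln5* and, at 0.00, *Mfap4*), where 47.3% and 47.2% of all genes did. The median log2 fold change of the 10 was 0.32 in db/db, -0.53 in STZ-HFD and 0.91 for the difference, beside -0.04, -0.04 and 0.03 over all genes tested. These medians rest on a fit with quality weights of 0.275, 0.462, 3.05 and 1.81 for Con+Veh 1 to 4. Without weights *Mfap5* in STZ-HFD was 0.09 and *Fbn2* 0.63, where the weighted fit gave -0.51 and -0.15. The other members kept their direction there, and a median without weights is not given here. In the main fit the difference was positive for 10 of 10 members and for 51.5% of all genes. Under 27 alternatives it changed sign in 5 for *Fbn2* and in 4 for *Emilin1*, and it stayed positive for the other members under theirs. The members were measured in the same libraries and are not independent observations. Libraries did not overlap for 2 members that were higher and 1 that was lower in db/db, where 14.1% and 11.7% of all genes did so, and for 1 that was lower and 0 that were higher in STZ-HFD, where 2.77% and 1.97% did. As the members were chosen with earlier results of these data known, nothing is read from these counts and medians against those over all genes.

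**Figure D4:**
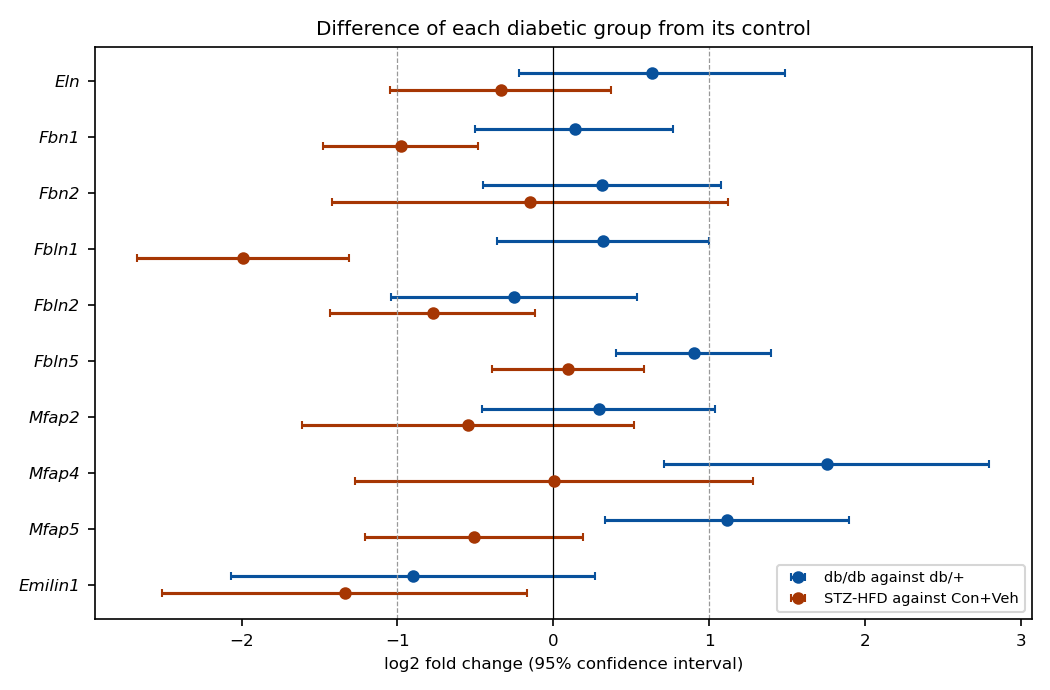
Log2 fold change of each gene with its 95% confidence interval, in db/db against db/+ (blue) and STZ-HFD against Con+Veh (brown), with dashed lines at the minimum of 1 in each direction. In this main fit every db/db estimate lies to the right of the STZ-HFD estimate of the same gene, and *Fbln1* in STZ-HFD, at -1.99, is the only interval wholly beyond a dashed line.

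Marker lists of other cells also differed in the db cohort. The 5 adipocyte markers summed to 81.0 to 116 CPM in db/+ and 201 to 353 in db/db, and 3 of the 5 were called higher. The 6 adventitial fibroblast markers summed to 112 to 181 and 206 to 330, and the 5 endothelial markers to 135 to 193 and 226 to 250, all without overlap, with 0 and 1 called higher. The 6 chondrocyte-like markers summed to 12800 to 22900 and 4940 to 13200, and the notochordal markers, of which 4 of 6 listed were tested, to 26.2 to 441 and 34.7 to 69.7, with 0 called in either list. The 5 osteoblast and osteocyte markers summed to 852 to 1440 in db/+ and 508 to 769 in db/db, without overlap and with 0 called, and the 6 skeletal muscle markers to 3760 to 7210 and 2350 to 3850, with 1 called lower. The 6 smooth muscle and pericyte markers summed to 404 to 2030 and 1310 to 3070, with 0 called and a median log2 fold change of 1.32. Their part in the higher *Fbln5*, *Mfap4* and *Mfap5* was not tested. Fold changes in db/db also ran with the GC content of genes, from a median of 0.29 in genes of 20.6% to 44.5% GC to -0.40 in genes of 53.9% to 75.9% GC, and the GC content of *Fbln5* was 46.9%, of *Mfap5* 48.2%, of *Mfap4* 53.6% and of *Emilin1* 61.1%. With the GC trend removed the log2 fold change was 0.80 for *Fbln5* (adjusted p=0.130), 1.01 for *Mfap5* (adjusted p=0.212), 1.92 for *Mfap4* (adjusted p=0.0724) and -0.42 for *Emilin1* (adjusted p=0.752). *Eln*, at 58.8% GC, went from 0.63 to 1.06 (adjusted p=0.155), *Mfap2* from 0.29 to 0.77 (adjusted p=0.254) and *Fbln1* from 0.32 to 0.60 (adjusted p=0.350). The remaining members stood at 0.46 (*Fbn2*), 0.31 (*Fbn1*) and 0.11 (*Fbln2*), and 0 members were called. In STZ-HFD the same medians ran only from 0.02 to -0.09.

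Outside the 10 members, 38 genes that build, cross-link, bind or degrade elastic fibers were listed, and 36 were tested. The lists were drawn up with earlier results of these data known, and the paper had already reported decreases of *Lox* and *Loxl3* in STZ-HFD. The counts and medians below therefore describe the lists, and nothing is read from them against the values over all genes. In STZ-HFD against Con+Veh 4 were called lower and 0 higher, beside 1.31% and 1.3% of all genes tested, and the median log2 fold change of the 36 was -0.44, beside -0.04 over all genes. In db/db against db/+ 2 were called lower and 0 higher, beside 0.432% and 1.23% of all genes, with a median of -0.06 beside -0.04. For the difference between the models 2 were called, both more positive in db/db, beside 0.816% of all genes in that direction.

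Lysyl oxidases cross-link elastin and collagen, and all 5 had negative log2 fold changes in STZ-HFD, from -1.27 to -0.60, with 2 called. *Lox*, the founding member, had 35.0, 37.1, 78.9 and 72.7 CPM in Con+Veh and 29.0, 48.3, 20.8 and 31.8 CPM in STZ-HFD. Only STZ-HFD 2 reached the range of the controls, and the log2 fold change was -1.27 (SE 0.25, adjusted p=0.0141). In db/db its log2 fold change was 0.43 (SE 0.31, adjusted p=0.431), and the difference between the models was 1.70 (SE 0.40, adjusted p=0.0390). *Loxl3* was lower in both models, from 75.0, 103 and 81.8 CPM in db/+ to 35.8, 37.2 and 41.3 CPM in db/db, and from 46.5, 15.3, 29.0 and 25.4 CPM in Con+Veh to 7.07, 11.2, 9.27 and 17.3 CPM in STZ-HFD. The db groups did not overlap and the other groups did. limma put the log2 fold change at -1.18 in each (SE 0.27 and 0.25, adjusted p=0.0346 and 0.0196).

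Further partners of the members were called. *Ltbp2*, a latent TGF-beta binding protein of microfibrils, had 45.3, 23.6, 39.9 and 50.0 CPM in Con+Veh and 16.6, 32.6, 17.9 and 13.7 CPM in STZ-HFD. Its groups overlapped through STZ-HFD 2 and Con+Veh 2, with a log2 fold change of -1.22 (SE 0.23, adjusted p=0.0111). *Fbln7*, a further fibulin, had 10.8, 15.5, 23.2 and 39.4 CPM in Con+Veh and 6.71, 12.2, 8.13 and 7.39 CPM in STZ-HFD, with overlap through STZ-HFD 2 and a log2 fold change of -1.61 (SE 0.32, adjusted p=0.0151). *Efemp2*, the fibulin that brings lysyl oxidase to elastin, had 13.5, 14.8 and 10.5 CPM in db/+ and 4.74, 4.81 and 8.31 CPM in db/db, without overlap and with a log2 fold change of -1.17 (SE 0.26, adjusted p=0.0338). In STZ-HFD its log2 fold change was 0.03 (SE 0.30, adjusted p=0.976). The difference between the models was called for none of these 3 (adjusted p=0.159 for *Ltbp2*, 0.0641 for *Fbln7* and 0.125 for *Efemp2*). The calls on *Lox*, *Fbln7* and *Ltbp2* in STZ-HFD were each lost without Con+Veh 3, Con+Veh 4, STZ-HFD 3 or STZ-HFD 4, with adjusted p up to 0.336 for *Lox*, 0.161 for *Fbln7* and 0.161 for *Ltbp2*, and that on *Loxl3* without the first 3 of these, up to 0.312. Without these libraries in turn, 17, 18, 18 and 164 of all genes were called in STZ-HFD. In db/db the calls were lost without any 1 library of the db cohort for *Loxl3* (adjusted p up to 0.138), and for *Efemp2* (up to 0.129) without any but db/db 3. Calls over all genes in db/db were 143, 21 and 69 without db/+ 1, 2 and 3. They were 37, 58 and 58 without db/db 1, 2 and 3. Under edgeR's quasi-likelihood test 0 of the 36 were called in either model. That test called 0 of all genes tested in db/db and 29 in STZ-HFD, so nothing is read from these counts. It had 1891 and 2136 of all genes tested at an unadjusted p under 0.05.

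**Figure D5:**
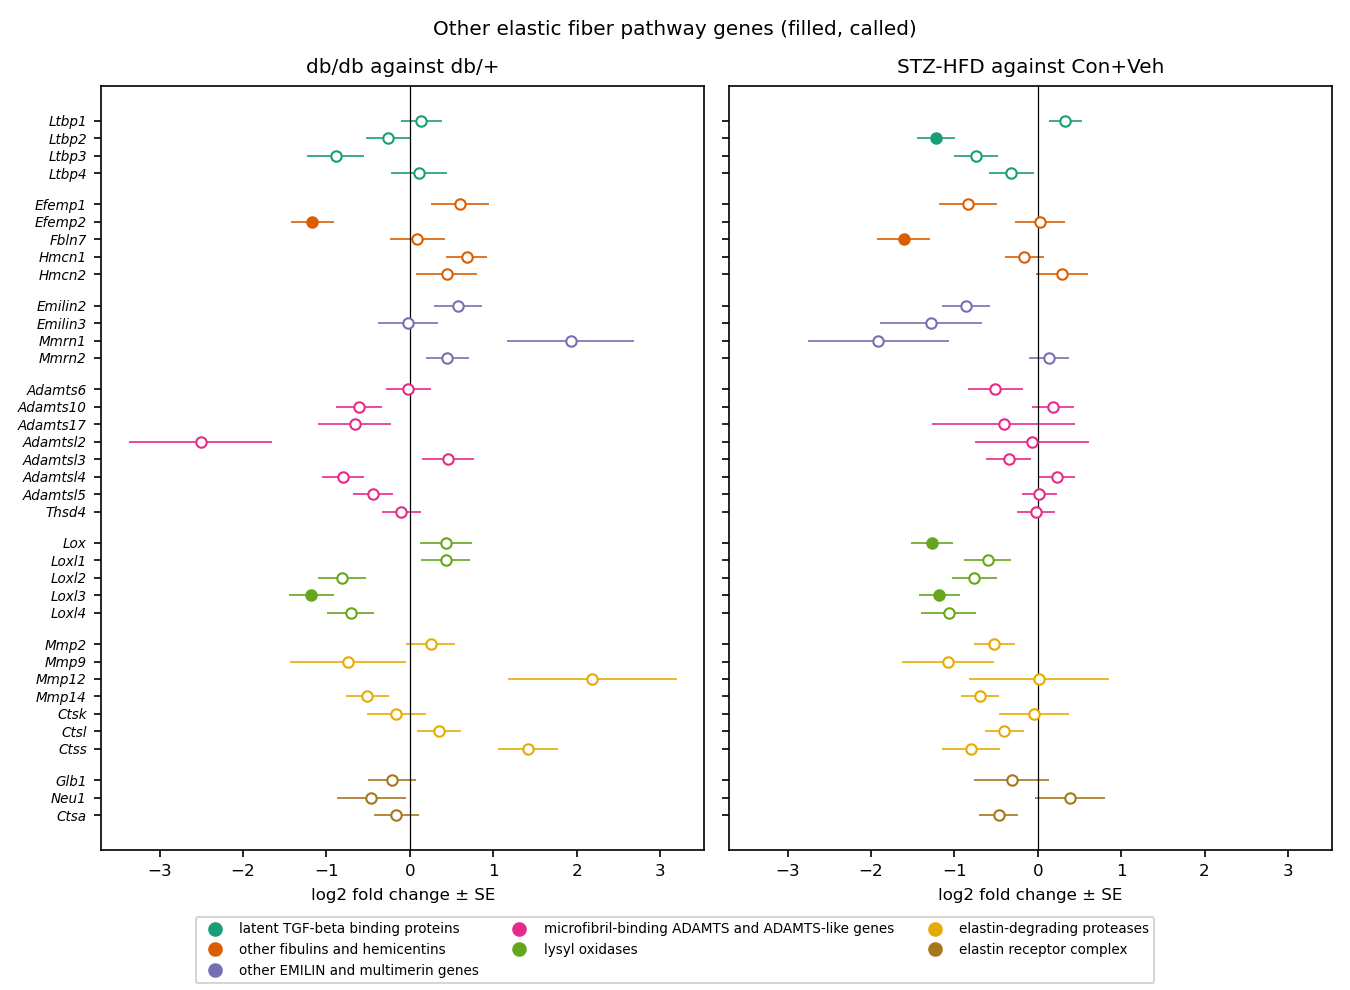
Log2 fold change with its SE for the 36 tested pathway genes outside the members, in db/db against db/+ (left) and STZ-HFD against Con+Veh (right), with filled points for called genes. The filled points are *Efemp2* and *Loxl3* on the left and *Ltbp2*, *Fbln7*, *Lox* and *Loxl3* on the right, all to the left of 0.

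The remaining lists held 0 called genes in each model. Of 8 microfibril-binding ADAMTS and ADAMTS-like genes, 7 had negative values in db/db (median -0.52) and 5 in STZ-HFD (median -0.04). Of 4 EMILIN and multimerin genes, 3 were positive in db/db (median 0.52) and 3 negative in STZ-HFD (median -1.07). Of 7 elastin-degrading proteases tested, 4 were positive in db/db (median 0.25) and 6 negative in STZ-HFD (median -0.52). Among these *Ctss*, a protease of macrophages that cleaves elastin, had 3.53, 1.42 and 2.32 CPM in db/+ and 8.89, 4.84 and 4.72 CPM in db/db, against 4.97, 10.1, 6.92 and 5.56 CPM in Con+Veh and 9.45, 3.32, 3.46 and 3.76 CPM in STZ-HFD. It passed in neither model (adjusted p=0.0503 in db/db), but its difference between the models of 2.22 (SE 0.50, adjusted p=0.0341) was called. That call was lost without any of 9 single libraries, with adjusted p up to 0.153 without Con+Veh 3, as the call on the difference of *Lox* was without any of 10, up to 0.201. Without Con+Veh 3 the difference was called for 4 of all genes. The 3 genes of the elastin receptor complex had medians of -0.21 and -0.31.

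The genes whose pattern over the 14 libraries was most like that of a member were ranked by the root-mean-square difference of centred log2 CPM, as a description. For *Fbln1* these were *Slc1a4* at 0.28, *Ptgis* at 0.30 and *Thbs1* at 0.32, where *Fbln1* itself had a spread of 1.11 about its mean. For *Fbn1* they were *Gm2a* at 0.22, *Prnp* at 0.24 and *Gm7665* at 0.25 (spread 0.53), and for *Fbln2* *Nupr1* at 0.24, *Msn* at 0.25 and *Txndc5* at 0.25 (spread 0.58). For *Fbln5* they were *Dubr*, *Tek* and *Tpm3-rs7* at 0.25 to 0.27 (spread 0.40), and for *Eln* *Fzd2*, *Fat4* and *Efs* at 0.36 to 0.38 (spread 0.73). For *Mfap5* they were *Asah1*, *Ly6a* and *Cbr2* at 0.35 to 0.39 (spread 0.68), for *Mfap2* *Gm42793*, *Sfrp4* and *Gm16201* at 0.49 to 0.56 (spread 0.89), and for *Mfap4* *Kcnmb1*, *Prkar2b* and *Mt2* at 0.59 to 0.62 (spread 1.08). For *Emilin1* they were *Vstm4*, *Gmds* and *Arsa* at 0.48 to 0.54 (spread 0.94). Within the list the closest pair was *Fbn1* and *Fbln2* at 0.40, followed by *Fbln5* and *Mfap5* at 0.50. All 14 libraries enter each of these values, so shared depth and shared cell content enter them too.

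Transcript estimates gave a second readout for 6 members, *Fbn2*, *Fbln2*, *Fbln5*, *Mfap2*, *Mfap4* and *Emilin1*, whose transcripts all have a row in the table used. For the other 4 the table used holds 1 transcript fewer than the gene has, and their shares were not analysed here. The share of the leading transcript was compared in 12 two-sided exact permutation tests, where 3 libraries against 3 cannot go below 0.1. Of these, 0 had an adjusted p under 0.05 and 0 an unadjusted p under 0.05. With these group sizes and 12 comparisons no adjusted p could fall under 0.05, so nothing is read from the adjusted values. The lowest unadjusted p of the permutation tests was 0.2. The leading transcript of *Fbln2* was the protein-coding Fbln2-202 in all libraries but db/db 1, where Fbln2-201 took 61.5%. In Con+Veh 1 to 3 and in STZ-HFD 1 and 2 the retained-intron Fbln2-206, at 20.4% to 30.9%, exceeded Fbln2-201. The share of Fbln2-202 was 57.3% ± 8.87 in db/+ and 42.7% ± 13.7 in db/db (SD, n=3, exact permutation p=0.200), with 56.3% ± 9.20 in Con+Veh and 59.2% ± 9.69 in STZ-HFD (SD, n=4, exact permutation p=0.60). *Mfap4* was read from Mfap4-202 alone in all libraries, at totals of 3.00 to 145 estimated counts. Fbln5-203 took 46.5% ± 21.8 in db/+ and 65.4% ± 13.3 in db/db (SD, n=3, exact permutation p=0.300), at totals of 117 to 320 estimated counts.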

How the data were processed

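Total RNA of pooled discs was amplified and sequenced by the authors, who aligned the reads to Ensembl release 101 with STAR and counted them per gene with featureCounts. The deposited gene counts are whole numbers without normalization. The authors also deposited estimated counts per transcript, made with Salmon, which entered 1 alternative (summed per gene, rounded) and the transcript shares. The strand setting is not given in the sources used here. Lines that repeat an identifier (287 of 55774) were used once, which left 55487 genes. GENCODE M21 gave positions, exon lengths and GC content on GRCm38 for 55227 of them, and RefSeq (GRCm38.p6) gave the promoter windows.

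Counts were scaled with TMM factors in edgeR 4.0.16 (R 4.3.3). Genes with CPM above 1 in at least 3 libraries (16915) were fitted with voomWithQualityWeights in limma 3.58.1, with a mean for each of 4 groups in 1 fit of all 14 libraries. The study's methods name this test, so edgeR's quasi-likelihood test was an alternative, as was DESeq2 1.42.0. P-values were adjusted by Benjamini-Hochberg within each contrast, over all genes tested, and calls required a value under 0.05 and a log2 fold change beyond 1 in size. Transcript shares were compared by two-sided exact permutation tests, adjusted over 12 comparisons. Groups and replicate numbers came from the sample labels, and each library is 1 mouse. The main fit held no batch term. Ribosomal RNA took 28.1% to 39.7% of the counts in the db cohort and 44.4% to 60.2% in the other cohort. The other alternatives were voom without weights, RLE factors, filterByExpr, no filter, each model alone, a replicate block, removal of the GC trend over 20 bins, both of these, removal of ribosomal RNA genes, no minimum on the fold change, and leaving out single libraries or the 2 whose names share an ending. Same-numbered libraries are different mice, and the numbers did not pair them. Named genes were all members, the pathway genes called in a comparison, and the 3 genes nearest to each member in centred log2 CPM (prior count 2), of which those for *Fbn2* are not reported here. The members and lists were chosen with earlier results of these data known. Floors of 3 counts cover counting error only. The fits were run on simulated counts with known changes, which held no GC trend and no unequal library quality. That run does not bear on calls that depend on single libraries.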

Additional observations from a re-analysis of the deposited data

Results flagged for a closer look

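The response of *Fbln1* differed between the models by a log2 value of 2.31, and among pathway genes those of *Lox* by 1.70 and *Ctss* by 2.22, by limma's test of the difference itself. In the groups of 4, the library farthest from the rest was set against the range of its group in 32 groups of values, and 5 stood apart, where chance gives about 1 in 20. *Fbn2* was at 16.8 CPM in STZ-HFD 1 with the next library at 2.29. *Fbn1* was at 168 CPM in STZ-HFD 2 with the next at 91.0. The share of Fbn2-201 was 92.3% in STZ-HFD 2 and 100% in the other STZ-HFD libraries, and that of Mfap2-201 was 45.7% in Con+Veh 3 and 40.8% in STZ-HFD 3 against 100% in the other libraries of those groups. With the other 3 libraries at exactly 100%, any lower value stands apart, so the rate of 1 in 20 does not apply to these 3 shares. These transcript shares rest on few estimated counts, from 2.00 to 27.0 for *Fbn2* and from 3.00 to 71.0 for *Mfap2*.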

How the results depend on the processing

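The 10 members were called in 0 cases in db/db under all alternatives. The leading transcript shares also gave 0 cases, where an adjusted p under 0.05 was out of reach. For STZ-HFD against Con+Veh, where 1 member was called, the count was 0 without quality weights, without a filter or from transcript totals (which lack *Fbln1*), 2 with no minimum on the fold change, and 0 to 3 when single libraries were left out. For the difference between the models, where 1 was called, it was 0 by edgeR, without quality weights, without a filter or from transcript totals, and 0 to 1 without single libraries. Pathway genes called in db/db, 2 in all, were 0 by edgeR, DESeq2, voom without weights, the GC trend removed or transcript totals, 1 with filterByExpr or with the block and the GC trend removed, and 0 to 3 without single libraries. Those called in STZ-HFD, 4 in all, were 0 by edgeR, voom without weights, no filter, transcript totals or the replicate block (with or without the GC trend removed), 2 without both libraries of the shared name ending, and 0 to 5 without single libraries. Over all genes, calls in STZ-HFD were 29 by edgeR, 19 without weights, 130 without a filter and 42 from transcript totals. With the block they were 38, and 39 with the GC trend removed as well. In db/db they were 0 by edgeR, 9 without weights, 131 with the GC trend removed and 98 from transcript totals. For the difference between the models they were 5, 3 and 46 by edgeR, without weights and from transcript totals. Same-numbered libraries correlated at 0.192, -0.280 and -0.185 in the db cohort and from -0.260 to -0.0422 in the other, so the block pairs nothing, and with it no member's call changed.

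Values that changed direction were all of uncalled differences. In STZ-HFD, *Fbn2* was 1.64 by edgeR, 1.67 by DESeq2, 0.63 without quality weights, 0.76 from transcript totals and 0.21 without both libraries of the shared ending, and its difference between the models was -1.3, -1.32, -0.32 and -0.12 under the first 4. In STZ-HFD *Mfap5* was 0.09 without quality weights, *Emilin1* 0.04, *Fbln5* -0.01 and *Mfap4* -0.21 from transcript totals, and *Mfap4* -0.01 without ribosomal RNA genes and 0.00 without both libraries of the shared ending. The *Emilin1* difference between the models was -0.86 without quality weights and -0.93 from transcript totals. *Fbln2* in db/db was 0.11 with the GC trend removed and 0.16 with the block as well. Leaving out single libraries moved *Eln* in STZ-HFD from -0.76 to 0.04, *Fbn2* from -0.62 to 0.35 and its difference from -0.03 to 0.94, *Fbln1* in db/db from -0.06 to 0.60, *Fbln2* in db/db from -0.48 to 0.08, *Mfap2* in STZ-HFD from -0.79 to 0.04, *Mfap4* in STZ-HFD from -0.25 to 0.48 and the *Emilin1* difference from -0.36 to 0.87. The cause of these changes was not tested. Of the 27 alternatives of *Fbln1* in STZ-HFD, adjusted p ranged from 0.000149 to 0.0883. At 3 or 4 mice a group and 16 to 412 counts for the rarest members, *Fbn2*, *Mfap2* and *Mfap4*, intervals are wide.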
